A study of Homo sapiens with 22 samples.

Results

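The regions described here are 5289 distal H3K27ac regions of TC-32 Ewing sarcoma cells that had a peak in both H3K27ac lists after knockdown with siFLI1 and in neither list of control cells. They were chosen by measured values. The 4 H3K27ac peak lists made with the Active Motif antibody were merged wherever peaks shared at least 1 bp on chromosomes 1 to 22 and X, which gave 90572 regions. A region was kept when it had a peak in each siFLI1 list and in no siNEG list, when its centre lay more than 2 kb from every GENCODE release 44 transcription start site (TSS), and when no run of 4 or more GGAA units, on either strand, lay within 1 kb of its centre. Of 7415 regions with that pattern in the lists, 2093 lay within 2 kb of a TSS and a further 33 held a GGAA run, which left 5289 gained distal regions. They made up 9.003% of the 58745 distal H3K27ac regions without such a run. Because the H3K27ac lists chose them, their values in these lists are a description and were not tested.

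All libraries came from TC-32, a single established Ewing sarcoma line that carries the EWSR1::FLI1 fusion. Control cells received 20 nM of the negative siRNA (siNEG) and depleted cells 20 nM of 1 siRNA against FLI1 (siFLI1), which the series used to lower the fusion. The siFLI1 sequence is directed at FLI1, and the level of the fusion itself was not analysed here. Each arm had 2 H3K27ac samples (Active Motif antibody), 2 H3K4me3 samples (EpiCypher antibody), 2 ETS1 samples (CST antibody) and 1 further H3K27ac library labelled ab4729, so that 14 of 22 samples gave peak lists and 8 were inputs. The ab4729 label also carries the catalogue number of the Active Motif antibody, so which antibody that library used in each arm cannot be told from the labels. The labels do not say whether replicates were separate transfections, so p-values measure the spread between these libraries only. The lists give no sequencing depth. They held 60027 and 60401 H3K27ac peaks in siNEG replicates 1 and 2, 65501 and 61481 in siFLI1 replicates 1 and 2, and 32738 and 51663 in the ab4729 siNEG and siFLI1 lists. As a check of the label, all 5 Ewing sarcoma markers (CD99, NKX2-2, NR0B1, STEAP1 and CCND1) had an H3K4me3 peak within 1 kb of a TSS in all 4 H3K4me3 lists. None of 9 markers of blood, epithelial or liver cells had one in any list, except EPCAM in siNEG replicate 1.

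Acetylation of histone H3 at lysine 27 marks active promoters and enhancers, and a distal H3K27ac region is commonly read as a candidate enhancer. EWSR1::FLI1 joins an EWSR1 activation domain to the DNA-binding domain of the ETS factor FLI1. It is known to open enhancers at GGAA repeats, and it is also known to hold down parts of a mesenchymal programme, including matrix and adhesion genes, that returns when the fusion is depleted. AP-1 (FOS and JUN dimers), TEAD, RUNX and E-box-binding factors are transcription factor families that bind enhancers in mesenchymal cells.

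The sequences below are the strongest summits and examples chosen for their matches, and they are not typical: 4969 of the 5289 summit windows held no AP-1 match and 17 held 2 or more. The first 3 are the 300 bp at the summits of the gained distal regions with the highest fold enrichment. The next 3 are those with the most AP-1 matches (TGACTCA or its reverse complement TGAGTCA) or TEAD matches (ACATTCC or GGAATGT) in that window. The last 2 lie 150 to 450 bp from the summit of the strongest gained region near ATF3 and near ITGA11, and were picked after their matches had been seen. All are the forward strand of the hg38 reference. Capitals mark AP-1 and TEAD matches in the first 6, and also RUNX (AACCACA or TGTGGTT) and E-box (CAGCTG) matches in the last 2.
chr2:100742753-100743052: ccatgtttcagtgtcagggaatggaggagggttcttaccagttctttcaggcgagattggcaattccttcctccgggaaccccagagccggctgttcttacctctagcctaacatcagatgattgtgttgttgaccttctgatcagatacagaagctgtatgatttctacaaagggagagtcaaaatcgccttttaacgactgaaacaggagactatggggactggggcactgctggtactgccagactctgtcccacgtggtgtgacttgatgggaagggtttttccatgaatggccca
chr22:44698365-44698664: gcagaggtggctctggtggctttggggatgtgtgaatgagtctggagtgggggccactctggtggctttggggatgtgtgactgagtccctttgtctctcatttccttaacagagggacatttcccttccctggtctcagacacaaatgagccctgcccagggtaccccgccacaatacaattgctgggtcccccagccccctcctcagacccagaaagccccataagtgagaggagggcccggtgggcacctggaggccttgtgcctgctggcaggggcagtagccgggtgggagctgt
chr6:105609306-105609605: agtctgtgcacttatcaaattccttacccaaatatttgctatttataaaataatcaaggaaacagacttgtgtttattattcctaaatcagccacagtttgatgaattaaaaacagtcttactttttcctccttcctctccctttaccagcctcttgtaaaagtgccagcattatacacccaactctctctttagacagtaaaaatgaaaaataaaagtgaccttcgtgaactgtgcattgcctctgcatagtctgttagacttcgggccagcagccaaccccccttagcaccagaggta
chr3:29185842-29186141: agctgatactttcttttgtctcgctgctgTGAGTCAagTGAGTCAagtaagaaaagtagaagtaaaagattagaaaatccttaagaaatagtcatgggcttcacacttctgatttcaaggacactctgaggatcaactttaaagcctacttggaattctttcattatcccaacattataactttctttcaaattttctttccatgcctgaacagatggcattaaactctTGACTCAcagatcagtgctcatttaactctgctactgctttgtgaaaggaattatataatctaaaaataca
chr12:75553609-75553908: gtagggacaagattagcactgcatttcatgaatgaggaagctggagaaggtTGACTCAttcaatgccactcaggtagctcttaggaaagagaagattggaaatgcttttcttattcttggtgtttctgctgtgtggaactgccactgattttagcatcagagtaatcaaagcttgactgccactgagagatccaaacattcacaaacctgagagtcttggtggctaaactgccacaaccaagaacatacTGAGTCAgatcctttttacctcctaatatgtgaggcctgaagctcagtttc
chr6:96816356-96816655: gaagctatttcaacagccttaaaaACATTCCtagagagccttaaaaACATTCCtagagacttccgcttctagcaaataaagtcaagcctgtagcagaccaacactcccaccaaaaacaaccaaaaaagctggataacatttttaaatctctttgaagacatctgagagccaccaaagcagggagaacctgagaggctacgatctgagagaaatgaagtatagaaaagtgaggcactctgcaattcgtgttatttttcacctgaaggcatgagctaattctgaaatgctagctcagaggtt
chr1:212528617-212528916: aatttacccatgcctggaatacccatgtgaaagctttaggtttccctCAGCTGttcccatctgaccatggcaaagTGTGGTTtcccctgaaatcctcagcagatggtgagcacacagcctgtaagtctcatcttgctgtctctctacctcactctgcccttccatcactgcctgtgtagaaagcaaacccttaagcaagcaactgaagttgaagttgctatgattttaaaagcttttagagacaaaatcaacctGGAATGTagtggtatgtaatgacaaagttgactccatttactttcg
chr15:68347562-68347861: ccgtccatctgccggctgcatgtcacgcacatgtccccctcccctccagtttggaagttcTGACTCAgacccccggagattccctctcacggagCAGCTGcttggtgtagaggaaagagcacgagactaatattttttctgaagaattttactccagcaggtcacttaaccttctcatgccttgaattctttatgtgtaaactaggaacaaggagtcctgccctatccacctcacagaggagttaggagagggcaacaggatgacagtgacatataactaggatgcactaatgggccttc
The 3 strongest summits held neither AP-1 nor TEAD letters. The window on chromosome 3, 94157 bp from the TSS of RBMS3-AS3, held 3 AP-1 matches, and the window on chromosome 6 in an intron of GPR63 held 2 TEAD matches.

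Gained distal regions were of middling strength. Their median width was 740 bp, against 527 bp over all distal regions, 2318 bp for the 11350 distal regions in all 4 lists and 709 bp for the 3143 distal regions that were lost (both siNEG lists and no siFLI1 list). The median fold enrichment over local background, the authors' own value per peak, was 4.59 in siFLI1 replicate 1 and 4.62 in siFLI1 replicate 2. The lowest values were 2.10 and 2.19 and the highest 21.4 and 22.3. The median gained region stood at the 48.4th percentile of peak folds in the first list and at the 45.4th in the second. Only 64 (1.21%) and 46 (0.870%) reached the top 10% of the list. In both lists, 3869 regions (73.2%) had a −log10 q of at least 5 and 308 (5.82%) of at least 20. Just outside the rule, 14811 distal regions were in 1 siFLI1 list and no siNEG list, with a median fold of 3.94 against a median of 4.08 for the lower fold of the regions inside it.

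**Figure D1:**
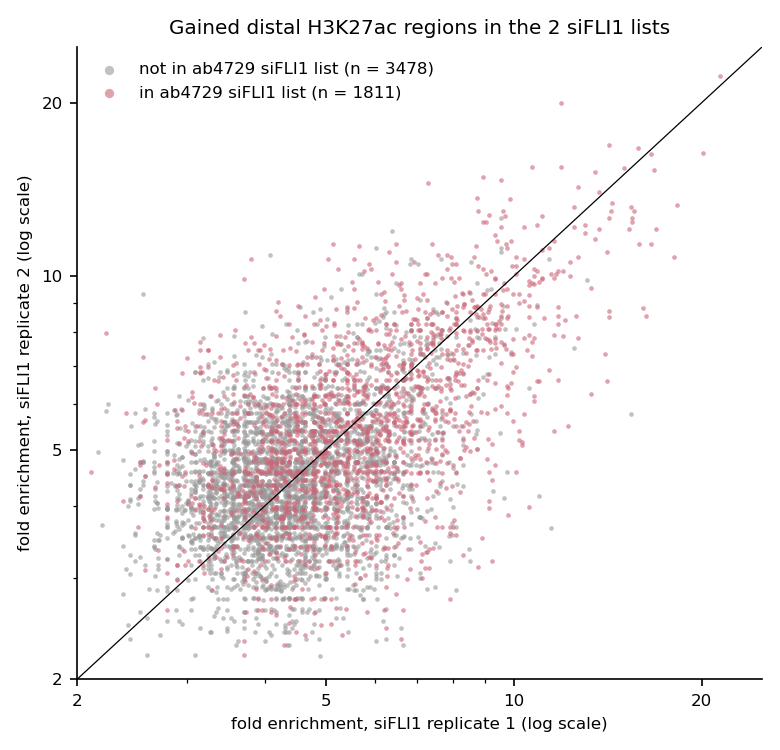
Fold enrichment of the 5289 gained distal regions in siFLI1 replicate 1 (x axis) and replicate 2 (y axis), both on log scales, with the line of equal values. Points in colour are the 1811 regions that also overlapped a peak of the ab4729 siFLI1 library, and they hold nearly all of the regions above a fold of 10 in both lists.

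Gained regions, like lost ones, lay inside genes less often than all distal regions. Their centres were intronic in 65.8% (3481 regions, 95% exact interval 64.5% to 67.1%), exonic in 5.14% and intergenic in 29.0% (27.8% to 30.3%). Of all distal regions 71.4% (71.0% to 71.7%) were intronic, 5.82% exonic and 22.8% (22.5% to 23.1%) intergenic. Lost regions were 64.8% intronic and 30.8% intergenic, and regions in all 4 lists 69.0% and 26.3%. The median distance to a TSS was 10.6 kb, against 11.2 kb for lost and 9.16 kb over all distal regions, with the lower limit set by the rule. At the distance limit, the nearest region inside was an intron of NECAP2 at 2002 bp (chr1:16457165-16457881, folds of 4.88 and 3.02) and the nearest outside an intron of IGDCC4 at 2000 bp (chr15:65408747-65409422, folds of 4.01 and 3.54). At the repeat limit, 39 gained distal regions had a longest GGAA run of 3 units, and 21 with 4 units and 12 with 5 or more were removed. Shares by chromosome ran from 6.56% of distal regions on chromosome 19 to 10.4% on chromosomes 6 and 18.

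Gained regions lay farther from control-cell peaks than lost regions lay from knockdown-cell peaks. The median gap to the nearest siNEG peak was 6.19 kb, and that of lost regions to the nearest siFLI1 peak was 3.05 kb. For 1248 regions (23.6%) the gap was at most 1 kb, and 359 (6.79%) lay more than 100 kb from any siNEG peak, against 31.2% and 6.87% of lost regions. Joined at the distance customary for stitching enhancers (the largest gap inside a chain was 12.49 kb), 3201 regions stood alone and 2088 fell into 896 chains of 2 or more, while 833 of the smaller set of 3143 lost regions did so. A region in all 4 lists lay within the same distance of 45.8% of the gained ones, 55.3% of the lost ones and 61.2% of all distal regions that were not themselves in all 4 lists.

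The 10 strongest gained regions also had a peak in the ab4729 siFLI1 library. The highest, chr2:100741716-100744082, lies in an intron of the uncharacterised transcript ENSG00000286737, with the circadian factor gene NPAS2 as the nearest coding gene. It had folds of 21.4 and 22.3 in siFLI1 replicates 1 and 2 and of 4.76 in the ab4729 siFLI1 list. An intron of PRR5, which encodes a component of the mTORC2 kinase complex, held the next (chr22:44697654-44700860) with 20.1, 16.4 and 13.5. Intergenic regions followed near LINC02836 (chr6:105607006-105610417, folds of 16.6 and 16.3), RPL23AP93 (chr3:194564574-194567532, 15.8 and 16.7) and ZPLD1 (chr3:102090222-102091938, 16.8 and 15.3). Introns of PRKAG2, a regulatory subunit of the energy sensor AMPK (chr7:151598331-151601638, 15.0 and 15.4), and of LINC02580 (chr2:43109271-43111344, 14.2 and 16.9) came next. The last of the top 10 were an intron of PALD1 near the protease gene ADAMTS14 (13.7 and 14.0), an intergenic region 88142 bp from ABRA (13.5 and 15.2) and one 22474 bp from the 5′ end of TNS3 (chr7:47603622-47606441, 14.4 and 13.4). All 10 overlapped a peak in the ab4729 siFLI1 list, with folds from 4.76 to 15.3, and none overlapped one in the ab4729 siNEG list. None overlapped an H3K4me3 or ETS1 peak.

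The ab4729 libraries were not used to choose the regions and give the same mark in 1 library per arm, so the values stand side by side with exact binomial intervals, which cover counting error only, and with no test. Of the 5289 gained regions, 94 (1.78%, interval 1.44% to 2.17%) overlapped an ab4729 peak in siNEG cells and 1811 (34.2%, 33.0% to 35.5%) in siFLI1 cells. All distal regions stood at 12.3% and 21.6% in the same lists, and those in all 4 H3K27ac lists at 47.4% and 66.0%. Without siFLI1 replicate 1 or 2, which leaves regions that need a peak in 1 siFLI1 list only, the siFLI1 share was 19.5% or 16.9% and the siNEG share 1.22% or 1.25%. The ab4729 siFLI1 list alone held 1752 of them (33.1%), against 12.51% of all distal regions, and the siNEG list alone held 35. Both lists held 59 and neither held 3443. Among the 59 in both, the median ab4729 fold was 5.14 in siNEG and 6.27 in siFLI1 cells, and 44 (74.6%) were higher in siFLI1. Of the 4687 regions in all 4 H3K27ac lists that both ab4729 lists held, 58.1% were higher in siFLI1, with medians of 6.92 and 7.63.

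The ab4729 siFLI1 list was the longer one, so the same shares were read with both cut to their 32738 strongest peaks. The gained regions then stood at 1.78% in siNEG and 21.1% in siFLI1 cells, and all distal regions at 12.3% and 14.1%. Of the 1117 found in exactly 1 list, 95.8% (94.4% to 96.9%) were in the siFLI1 list. For all distal regions that share was 57.8%, for those in all 4 lists 55.5%, and for lost regions it was 7.87%. The share was higher in stronger groups: ranked by the lower of their siFLI1 folds and divided into 4 equal groups, 21.6%, 22.9%, 31.7% and 60.8% of gained regions were in the ab4729 siFLI1 list, from weakest to strongest. In the ab4729 siNEG list the shares of the same groups were 1.29%, 1.36%, 1.89% and 2.57%.

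**Figure D2:**
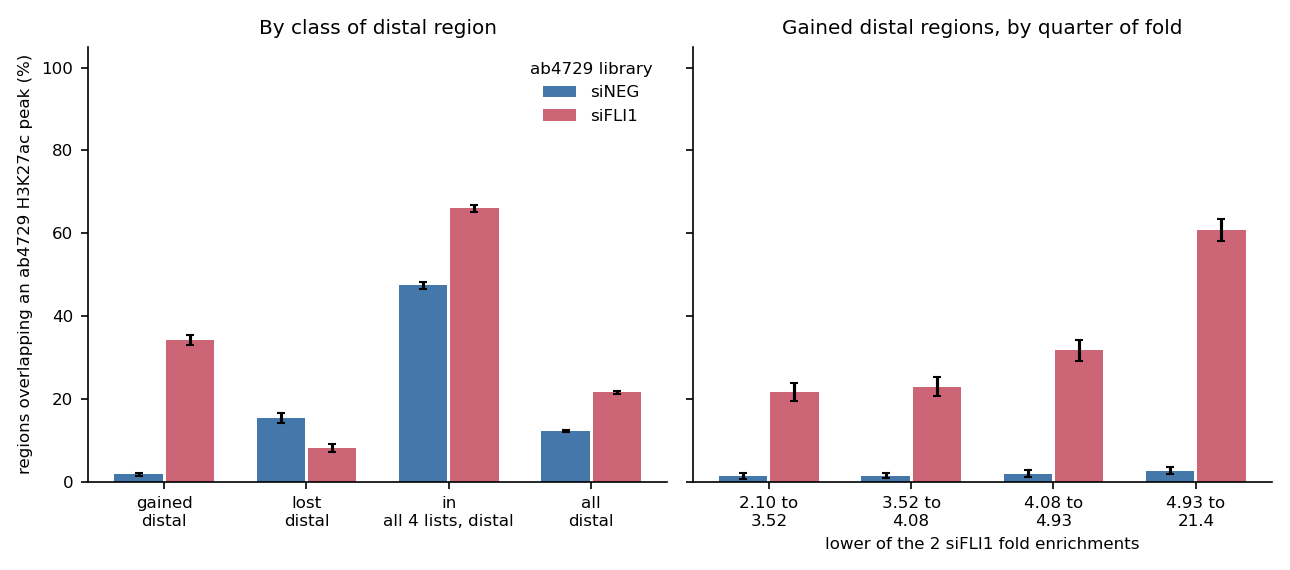
Share of regions overlapping a peak of the ab4729 siNEG and siFLI1 libraries (percent, bars, 1 library each, with exact 95% binomial intervals), by class of distal region on the left and, for gained distal regions, by the lower of the 2 siFLI1 folds on the right. Gained regions stood at 1.78% and 34.2%, and the strongest group at 2.57% and 60.8%.

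Few gained regions carried the promoter mark H3K4me3. It overlapped 2.57% and 2.84% of them in siNEG replicates 1 and 2 and 2.17% and 2.23% in siFLI1 replicates 1 and 2, so that both siFLI1 values were below both siNEG values. The means were 2.70% ± 0.187 (SD, n = 2) and 2.20% ± 0.0401 (SD, n = 2), a difference of -0.501 percentage points with an exact two-sided permutation p = 0.33, the smallest that 2 against 2 can give. All distal regions moved from 4.98% to 3.97% in the same lists, a difference of -1.01 points. Lost regions had similarly low means, 2.86% in siNEG and 1.86% in siFLI1, and regions in all 4 H3K27ac lists had 9.33% and 8.33%. H3K4me3 in both siFLI1 lists and no siNEG list was found at 5 gained regions (0.0945%), close to the 0.104% (61) of all distal regions. The opposite pattern was found at 13 (0.246%), against 0.550% of all distal regions. The 5 were 2 adjacent regions in an intron of COL5A1 (chr9:134644456-134644849 and chr9:134644964-134645624, 2850 and 3491 bp from a TSS) and 1 each in introns of NOL4L, KCMF1 and GSN, the last encoding the actin-severing protein gelsolin. A further 86 were in all 4 H3K4me3 lists and 5107 in none.

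ETS1 peaks were rare in gained regions and over all distal regions. The ETS1 lists overlapped 0 and 0 regions in siNEG replicates 1 and 2 and 3 and 6 in siFLI1 replicates 1 and 2, out of lists of 302, 208, 1633 and 2635 peaks. These are 0.0567% and 0.113% in the siFLI1 lists, against 0.243% and 0.371% of all distal regions and 0.0636% and 0.0955% of lost ones. In the siNEG lists all distal regions stood at 0.0340% each. Those 6 lay in introns of ATOH8, HTRA1 and UPK2, in an exon of SOX12, 4914 bp from SOX4, and at chr6:43714230-43715009. ETS1 values are given for each list only, and whether both siFLI1 lists stem from separate libraries was not tested. The ETS1 gene itself had 1 distal H3K27ac region (chr11:128458761-128587558 is the gene), and that region was a gained one. Of 4 distal regions in FLI1, 1 was gained (chr11:128715381-128717540, an intron, folds of 6.60 and 7.77, and 5.80 in the ab4729 siFLI1 list).

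At gene level, 6140 of 19970 protein-coding genes (30.7%) had a gained region within 100 kb of their 5′ end, and 445 had 4 or more. Gene lists were read as the share of distal regions within 100 kb of a listed gene that were gained, beside the 9.003% of all distal regions. Regions around 1 gene share a locus, so the intervals cover counting error only.

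Collagen and matrix genes had the highest share of the 10 lists. Of 263 distal regions near the 30 listed genes, 56 were gained (21.3%, 16.5% to 26.7%) and 7 lost (2.66%, against 5.35% of all distal regions and 2.64% near the ribosomal protein genes read as a comparison). A gained region lay near 19 of the 30 genes, and 27 of the 56 regions lay near COL4A1, COL4A2, COL5A1, FN1 and LAMB1. COL4A1 and COL4A2, the paired basement membrane collagen genes that start head to head on chromosome 13, shared 7 gained regions among 14 distal ones, with none lost and none in all 4 lists. Their folds ran from 3.59 to 13.5 in siFLI1 replicate 1 and from 4.13 to 11.6 in replicate 2. The median gap to a siNEG peak there was 91.1 kb and the smallest 1.80 kb, and the strongest (chr13:110247088-110248743, an intron of COL4A1, folds of 13.5 and 11.6) had a fold of 13.9 in the ab4729 siFLI1 list. In that list 6 of the 7 were found, and 1 in the ab4729 siNEG list.

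LAMB1, which encodes the laminin beta-1 chain, held the largest chain of all: 8 gained regions in 44.1 kb of the gene (chr7:107946965-107991079), among 22 distal regions. Their lower folds ran only from 3.02 to 5.62, and none was in either ab4729 list. FN1, the fibronectin gene, held 6 gained regions in 26.7 kb (chr2:215377538-215404220), with folds from 2.89 to 5.30 and from 3.36 to 5.66, and 2 were in the ab4729 siFLI1 list. At both genes the gained regions lay between peaks that control cells also had, at a median gap of 4.02 kb at LAMB1 and 1.24 kb at FN1, in contrast to COL4A1. COL5A1, a fibrillar collagen gene, had 5, all inside the gene, with 4 in the ab4729 siFLI1 list and 1 in the ab4729 siNEG list. The strongest region of the list lay near SPARC, the gene of the matrix protein osteonectin (chr5:151738820-151741764, intergenic, with the TSS of ATOX1 nearest at 6271 bp, folds of 18.3 and 13.3, and 12.7 in the ab4729 siFLI1 list).

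Adhesion and actin genes stood at 72 gained of 535 distal regions (13.5%, 10.7% to 16.6%) and 12 lost (2.24%). A gained region lay near 25 of 40 genes (62.5%, against 46.2% of the ribosomal protein genes). With 1 list left out the share of gained regions was 18.0% to 35.5%, when all distal regions gave 12.4% to 27.3%. TNS3, which encodes the focal adhesion protein tensin 3, had 14 within 100 kb, the most of any protein-coding gene, of 39 distal regions with none lost. Folds at TNS3 ran from 3.44 to 14.4 and from 3.30 to 13.4, 10 of the 14 were in the ab4729 siFLI1 list and none in the siNEG list. The other genes of this list with 4 or more were TNS2 and CALD1 (6 each), TNS4 and ACTN4 (5 each) and VCL, ITGA11 and ITGA3 (4 each). CALD1 encodes the actin-binding caldesmon, ACTN4 and VCL the adhesion linkers alpha-actinin 4 and vinculin, and ITGA11 and ITGA3 integrin subunits. All 6 regions counted at TNS2 were intergenic, and the stretch that holds them (chr12:52964258-52977731) is nearest to the keratin gene KRT8. Of the 72 regions, 48 lay near these 8 genes. The other 32 genes had 24 gained of 341 distal regions (7.04%), a share that is lower by construction, since the 8 were picked out by their count.

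**Figure D3:**
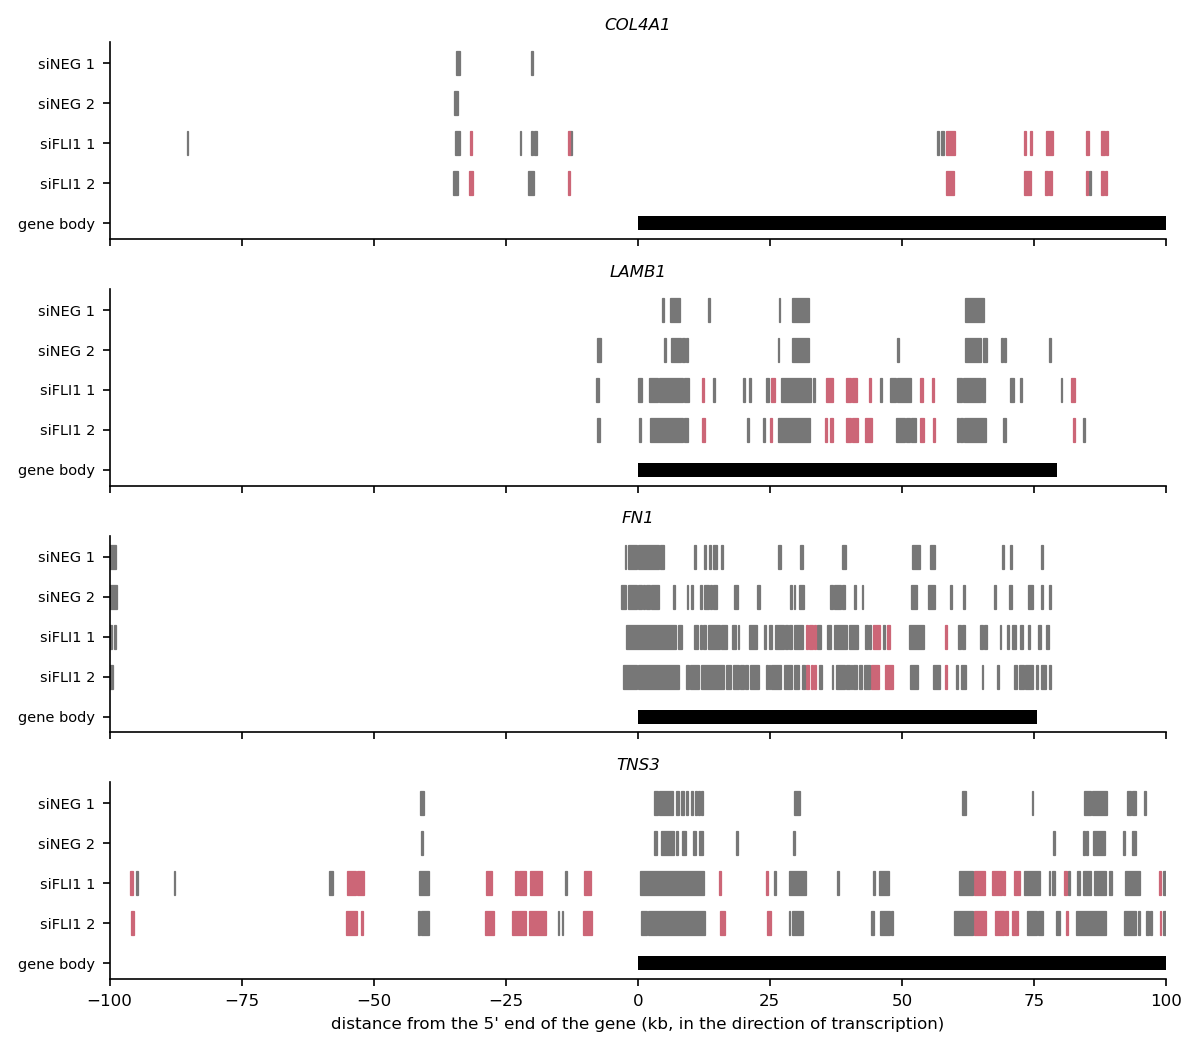
H3K27ac peaks of the 4 lists (rows) within 100 kb of the 5′ end of COL4A1, LAMB1, FN1 and TNS3, as distance in kb in the direction of transcription, with the gene body as a black bar. Coloured blocks belong to gained distal regions and grey ones to all other peaks: the 5 gained regions inside COL4A1 stand in a stretch with no siNEG peak, 2 others lie upstream near siNEG peaks, and at LAMB1 and FN1 gained regions lie between peaks of both arms.

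Genes reported as raised by the fusion stood below the background of 9.003%, with 3 gained of 118 distal regions (2.54%, 0.527% to 7.25%) and 15 lost (12.7%). With 1 list left out it stood at 5.45% to 8.06%, against 12.4% to 27.3% of all distal regions. The gained ones lay near IL1RAP (chr3:190589411-190589863, folds of 5.19 and 4.56), BCL11B and LIPI. The intervals of the other 7 lists all included 9.003%. Of these 7, the YAP and TEAD list stayed above and the mesenchymal list below the share of all distal regions with each list left out. The other 5 changed side in at least 1 such setting: without siFLI1 replicate 1, genes reported as lowered by the fusion stood at 22.3%, TGF-beta pathway genes at 25.9% and all distal regions at 24.3%. Genes reported as lowered by the fusion had 13 gained of 126 distal regions (10.3%, 5.61% to 17.0%) and 9 lost (7.14%, against 5.35% of all distal regions). Of the 10 genes, 5 had more gained than lost regions and 4 had more lost than gained. TNC, the tenascin C gene, was among those 4, with 3 gained (strongest chr9:115145392-115147916, an intron of DELEC1, folds of 6.63 and 6.94) and 4 lost.

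The YAP and TEAD list, which holds these factors and their regulators as well as target genes, stood at 9.81% (26 of 265). AMOTL2, a YAP regulator, had 4 gained regions, all in the ab4729 siFLI1 list (strongest chr3:134308574-134310553, with RYK as the nearest coding gene, folds of 7.27 and 7.48), and 1 lost. MYOF, the gene of the membrane protein myoferlin, had 4 gained and 3 lost, with no gained one in either ab4729 list. AP-1 and MAF factor genes stood at 9.49% (15 of 158), with 4 near ATF3 and the strongest near BATF3 (chr1:212666623-212668878, folds of 11.6 and 7.92). ETS genes stood at 9.21% (14 of 152), with 4 near ELK3. Ribosomal protein genes, which served as a comparison, stood at 9.24% (28 of 303). Of these, 9 lay near RPS14, next to CD74, and 5 near RPL11, and the strongest lay near RPS18 (chr6:33260277-33261498, an intron of VPS52, folds of 7.03 and 6.26). TGF-beta pathway genes stood at 6.65% (23 of 346), with 4 inside TGFB2 and the strongest near SMAD2 (chr18:47967559-47968134, folds of 8.09 and 8.48). Mesenchymal transcription factors stood at 6.01% (11 of 183), with the strongest near PRRX2 (chr9:129761049-129763424, with PTGES as the nearest gene, folds of 6.06 and 9.77).

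**Figure D4:**
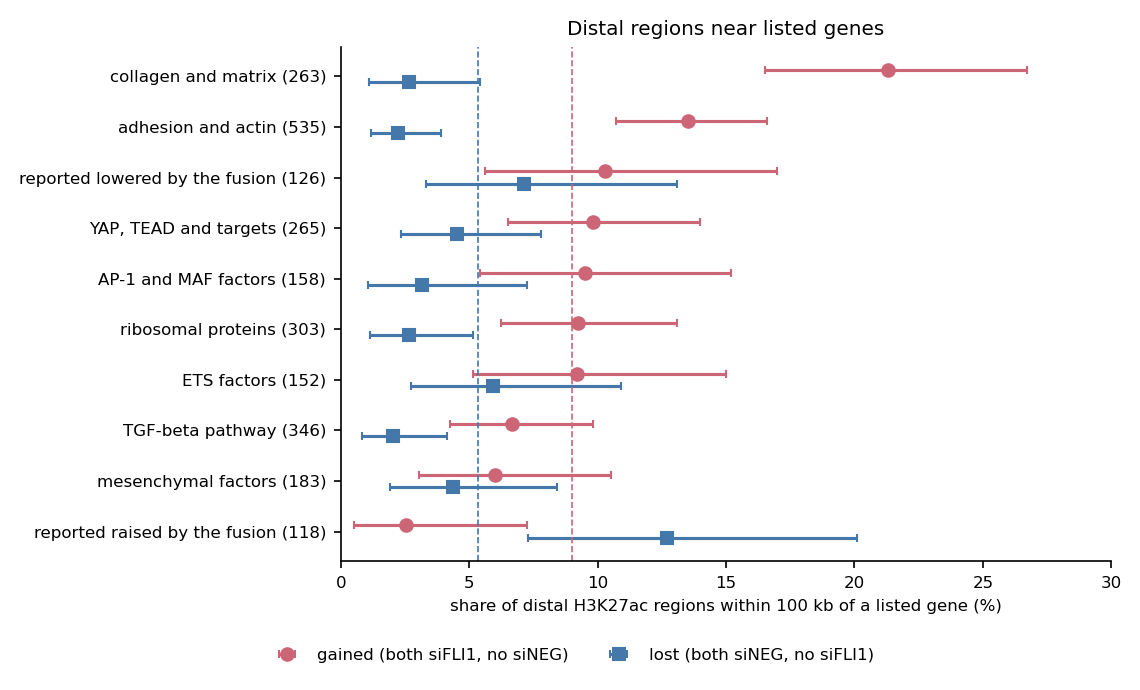
Share of distal H3K27ac regions within 100 kb of a listed gene that were gained (circles) or lost (squares), in percent with exact 95% binomial intervals; the number of distal regions is in brackets and the dashed lines are the shares over all distal regions, 9.003% gained and 5.35% lost. Collagen and matrix genes stand at 21.3% gained, and genes reported as raised by the fusion at 2.54% gained and 12.7% lost.

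Further chains of 6 regions lay inside MAP1B, a microtubule-associated protein gene (chr5:72140396-72160441, 20.0 kb), and at PGS1 and the divergent transcript SOCS3-DT (chr17:78365899-78409886, 44.0 kb). The 5 chains read were those at LAMB1, FN1, MAP1B, PGS1 and the stretch nearest to KRT8. They were ranked by size, with ties broken by summed fold, so not every chain of 6 is named. In these 5 chains no lost region was found, and 0 to 3 of the members of each were in the ab4729 siFLI1 list.

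Sequence at the summits themselves differed little between classes. In 300 bp centred on the strongest summit, AP-1 letters occurred in 6.05% of gained regions (5.42% to 6.73%) and 5.89% of all distal regions, TEAD letters in 5.10% and 4.61%, and RUNX letters in 5.82% and 5.60%. E-box letters occurred in 17.0% (16.0% to 18.0%) against 14.3% (a difference of 2.66 points, and of 1.41 and 1.16 points without siFLI1 replicate 1 or 2), and in 13.0% and 12.8% of windows 1 kb to the left and right of the gained summits. The ETS letters CCGGAAG occurred in 0.775% against 0.998%, and in 1.35% of regions in all 4 lists. Median GC content was 46.0% in gained and 45.0% in all distal windows.

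Matches were more frequent beside the summits than at them. AP-1 matches dipped at the gained summits, to 21.9 and 18.5 per 1000 regions in the 100 bp to the left and right, reached 45.9 and 46.5 per 1000 at 200 to 300 bp to the left and 300 to 400 bp to the right, and were lower again, at 17.0 and 16.6, at 1 kb. TEAD matches stood at 15.9 per 1000 on each side of the summit and at 32.9 and 37.2 at 300 to 400 bp. This dip was not particular to gained regions: in regions in all 4 lists AP-1 stood at 20.1 and 18.5 beside the summit and at 51.0 and 54.4 at 300 to 400 bp.

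Shares were also read in the window from 150 to 450 bp on each side, chosen after the profile had been seen. It is longer than the summit window, so shares in it are compared between classes only. TEAD letters occurred there in 16.5% of gained regions (15.5% to 17.5%), 11.0% of all distal regions, 12.8% of regions in all 4 lists and 9.51% of lost regions. RUNX letters occurred in 16.1% (15.1% to 17.1%), 12.2%, 12.7% and 11.8% in the same order. E-box letters occurred in 33.4% (32.1% to 34.7%), 27.2%, 30.1% and 24.6%. AP-1 letters occurred in 21.6% (20.5% to 22.7%) and 16.8%, but in 23.7% of regions in all 4 lists and 14.6% of lost ones. ETS letters went the other way: CCGGAAG occurred in 1.53% of gained regions (1.22% to 1.90%), 2.49% of all distal and 4.09% of regions in all 4 lists, and AGGAAGT in 13.9%, 15.1% and 17.5%, with 18.6% of lost regions. In windows of the same length 700 to 1000 bp from the gained summits, TEAD, RUNX, E-box and AP-1 stood at 8.81%, 10.1%, 24.8% and 10.6%, close to all distal regions (7.93%, 10.2%, 23.6% and 9.93%).

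Within the gained regions, TEAD and E-box shares differed with detection in the ab4729 library. The TEAD share was 19.2% (17.4% to 21.1%) in the 1811 found in the ab4729 siFLI1 list and 15.0% (13.9% to 16.3%) in the 3478 not found there, and the E-box share was 36.3% and 31.8%. RUNX stood at 16.8% and 15.7% and AP-1 at 21.5% and 21.6%. At 700 to 1000 bp TEAD stood at 10.3% and 8.05%, so the TEAD difference was not limited to the sequence beside the summit, and E-box at 24.8% and 24.7%. Mean GC content at 300 to 400 bp was 45.5% and 45.6% to the left and right in gained regions, 45.0% and 45.0% in all distal regions and 45.7% and 45.8% in regions in all 4 lists. A match is a description of letters only, both strands were searched, and binding of these factors was not measured.

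**Figure D5:**
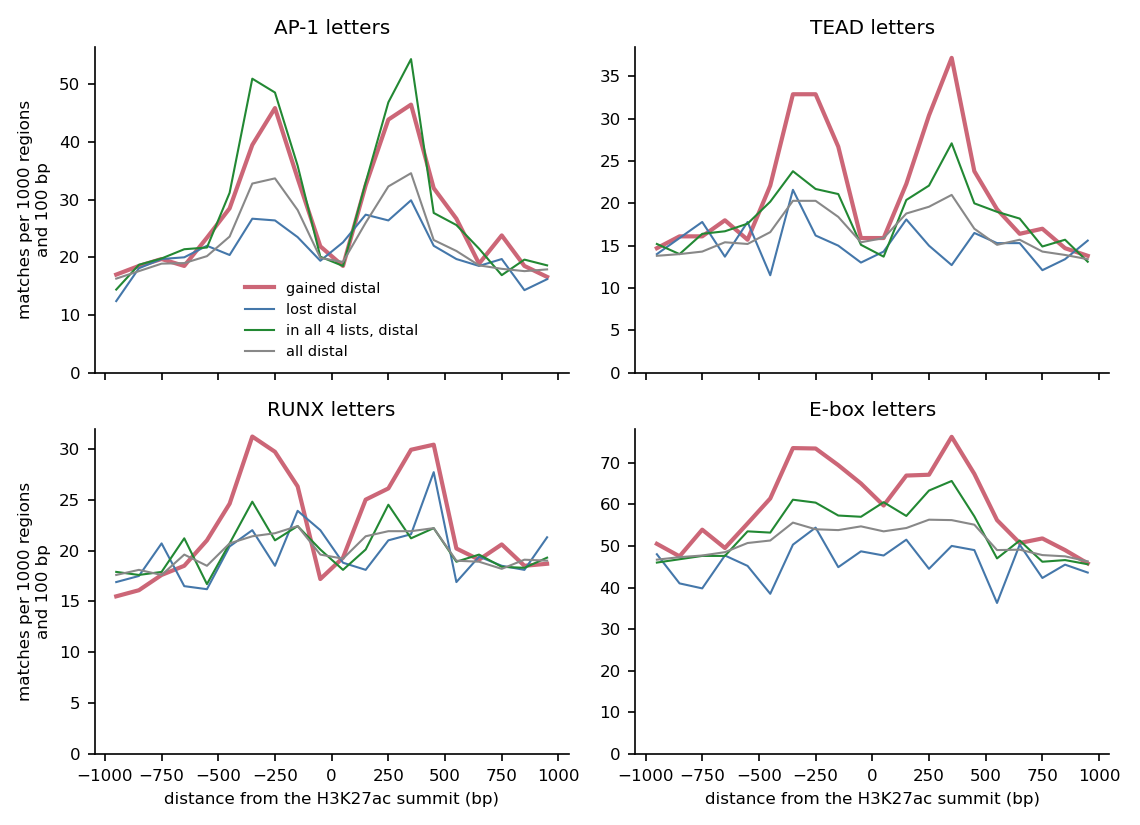
Matches per 1000 regions and 100 bp to AP-1, TEAD, RUNX and E-box letters, either strand, by distance from the H3K27ac summit in bp, for gained, lost, all-4-list and all distal regions (lines). AP-1 and TEAD matches in gained regions dip at the summit, and gained regions stand highest for TEAD at 300 to 400 bp to the right, at 37.2 per 1000.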

How the data were processed

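ChIP-seq peak lists of TC-32 cells were analysed. Per the submitters' processing notes, the tools were cutadapt 4.4, BWA 0.7.17, Picard 2.17.11 and MACS2 2.1.1, and builds GRCh38, hg38 and dm6 are named without a role. Whether a dm6 (fly) spike-in was used to scale the lists is not given in the sources used here, and such scaling would bear on which peaks passed in each arm. Coordinates are hg38, counted from 1. Each deposited list belongs to 1 sample. The deposited fold is the authors' ratio of signal at a summit to local background. The deposited −log10 p and −log10 q values are the authors' own for each peak, and the deposited score, a whole number made from them, was not used. Such values rank peaks within 1 list. A region absent from a list had no peak past the authors' limit, which depends on depth, and depth is not given in the lists. Input libraries were not used here.

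Peaks were merged at 1 bp overlap with Python 3.11.15, pandas 2.3.3 and numpy 2.4.6. H3K4me3 shares were compared with an exact permutation test (scipy 1.17.1), shares carry exact (Clopper-Pearson) 95% intervals that cover counting error only, sequences were read with pysam 0.24.0 from the hg38 reference, and figures were drawn with matplotlib 3.10.9. Merging, classing and motif search were tested on simulated peaks and sequences. Replicate lists shared 0 to 7 identical intervals.

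Named regions were the 10 gained regions with the highest lower siFLI1 fold, the strongest near each gene list, the 5 largest chains (ties by higher summed fold), listed genes with 4 or more gained regions within 100 kb, and those at the limits. BCL11B, LIPI and the regions with ETS1 peaks or with H3K4me3 in siFLI1 lists only were named after their values were seen. The members, gene lists and motifs were chosen with earlier results of these data known. Alternatives covered distances, repeat length, overlap, list length, the q limit, windows, each replicate left out and the replicate block.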

Additional observations from a re-analysis of the deposited data

How the results depend on the processing

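The number of gained distal regions was 5289 and stayed within 1.5 times of it (3998 to 5932) for TSS distances of 1 and 5 kb, runs of 3 units, an overlap of 50% of the shorter peak, no siNEG peak within 1 kb, equal list lengths and a −log10 q of at least 5. Leaving out 1 of the 4 lists gave 6708 to 15156: 7269 and 6708 without siNEG replicates 1 and 2, and 13121 and 15156 without siFLI1 replicates 1 and 2, which by construction needs a peak in 1 siFLI1 list only. The ab4729 share, siFLI1 minus siNEG, was 32.5 points. It was 19.3 points with equal numbers of ab4729 peaks, 23.5 with −log10 q of at least 5, 34.2 for regions from equal H3K27ac lists, and 15.6 to 32.1 with each H3K27ac list left out (the last 2 settings were chosen after seeing the data). Regions with any ETS1 peak numbered 6, 13 within 1 kb, and 8 to 20 with each list left out.

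The H3K4me3 difference kept its sign in all 9 alternatives (-0.633 to -0.369 with each list left out) and was smallest, at -0.227 points, when an overlap of 50% of the shorter interval was required. With the replicate block it was -0.501 points (exact sign permutation p = 0.50, the smallest 2 pairs allow), and the number of regions under the block was 5289 by construction; nothing in the labels pairs the numbers.

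The collagen and matrix share was 21.8% at 50 kb, 19.2% at 250 kb and 21.5% from equal lists, and 25.7% to 44.2% with each list left out, when all distal regions gave 12.4% to 27.3%. The mesenchymal factor share was 9.89% at 250 kb, against 6.01%. TEAD letters at gained summits minus all distal were 0.499 points, and -0.127 in 100 bp, 1.74 in 500 bp and 5.45 at 150 to 450 bp (longer windows hold more matches). With each list left out, TEAD gave 0.264 to 0.384 points in 300 bp. AP-1 gave 0.157, 0.161, 1.99 and 4.73, and 0.0106 to 0.272 with each list left out. E-box gave 2.66, 0.633, 4.44 and 6.19, and 1.16 to 2.20 with each list left out. Depth limits which weak peaks pass the authors' limit, and absence from a list is not absence of acetylation.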
